A study of Mus musculus with 21 samples.

Results

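The expression of 10 cadherin genes was followed in isolated cells of the mouse inner ear by bulk RNA-Seq. The genes were chosen by name (Cdh1, Cdh2, Cdh4, Cdh6, Cdh7, Cdh8, Cdh9, Cdh10, Cdh11 and Cdh13) and found in the count table through their Ensembl gene identifiers, as 10 of its 52550 genes. The cells were spiral ganglion neurons (SGNs), the neurons that carry signals from the cochlea to the brainstem, at the embryonic age E15.5 and at postnatal days 1, 8, 14 and 30 (P1, P8, P14 and P30), hair cells (HCs), the sensory receptors, at P12, and cochlear glia at P8. There were 3 libraries in each of the 7 groups, 21 in all.

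All mice were C57BL/6 and all collected cells carried the red fluorescent protein tdTomato. Per the paper's methods, SGNs and glia were picked by hand and HCs were obtained by fluorescence-activated sorting. SGNs came from ShhCre/+; Rosa26-CAG-loxp-stop-loxp-tdTomato/+ mice, in which a Cre recombinase expressed from the Shh gene switches the reporter on in SGNs of the cochlea. HCs came from cochlear and vestibular organs of mice with the Atoh1-CreER+ driver and the Rosa26 reporter, after tamoxifen in the first days of life, so that they are a mixture of HC types of both organs. Glia came from the ganglion area of vGlut3-iCreER/+; Rosa26 reporter mice, also after tamoxifen. An SGN library was made from 69 to 195 cells, a glial library from 86 to 125 cells and an HC library from about 1200 cells. The labels do not say that replicates came from separate animals, so p-values measure only the spread between these samples. HCs were taken at P12 only and glia at P8 only, so that outside the P8 pair cell type and age cannot be told apart. Driver line and tamoxifen also differed with cell type, in the P8 pair too, and cannot be told apart from it. For HCs the same holds for the way of collection and the number of cells. In pooled cells, fewer cells with a transcript and less transcript per cell cannot be told apart either.

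Classical cadherins are single-pass membrane proteins that hold neighbouring cells together through calcium-dependent contacts, mostly between cadherins of the same kind. Their cytoplasmic tail binds beta-catenin and p120-catenin, and alpha-catenin links this complex to actin. Type I members are Cdh1 (E-cadherin, typical of epithelia), Cdh2 (N-cadherin, typical of neural tissue) and Cdh4 (R-cadherin). Type II members are Cdh6, Cdh7, Cdh8, Cdh9, Cdh10 and Cdh11, many of which are expressed in subsets of neurons, glia or mesenchyme. Cdh13 (T-cadherin) is held in the membrane by a lipid anchor and lacks the catenin-binding tail, so the name classical does not strictly cover it.

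Libraries held 10368240 to 37287489 counts. Levels are given as normalized RPKM, the count per kilobase of gene and per 1000000 counts after TMM scaling (a correction for RNA composition), which can be compared between genes and libraries. Marker genes matched the labels: 8 SGN markers summed to 640 to 3004 RPKM in SGN libraries, 76.2 to 90.7 in HCs and 25.9 to 225 in glia, 9 HC markers to 1630 to 1801 in HCs and 19.4 to 368 in SGNs, and 8 glial markers to 6850 to 9444 in glia and 8.40 to 1080 in SGNs. SGN libraries were not free of markers of other cells. Replicate 1 at P1, P8, P14 and P30 had the highest connective tissue marker sum of its age (100.1, 124, 35.3 and 22.0 RPKM, against 1.89 to 17.1 in the other libraries of these ages). Glial replicate 1 had the highest SGN marker sum of the glia (225 against 52.3 and 25.9).

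The sequences just upstream of Cdh6 and Cdh9, both on chromosome 15, are shown. This pair was picked because its promoter windows shared the longest run of all pairs of members. Cdh6, with its highest level in glia, and Cdh9, with its highest in SGNs, hold in their upstream 90 bases the same 15-base run, printed in capitals. The stretches were read from RefSeq promoter windows of build GRCm38.p6 on the strand of the gene, 5′ to 3′, and end at the base before the annotated GENCODE M21 gene start. They lie at chr15:13173676-13173765 on the minus strand (Cdh6) and chr15:16728666-16728755 on the plus strand (Cdh9).
Cdh6: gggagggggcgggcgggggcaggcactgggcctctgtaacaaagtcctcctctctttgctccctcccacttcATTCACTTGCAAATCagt
Cdh9: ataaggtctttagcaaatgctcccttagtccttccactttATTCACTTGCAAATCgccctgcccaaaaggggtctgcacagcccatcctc
The run lies 4 to 18 bases before the start of Cdh6 and 36 to 50 bases before that of Cdh9. On either strand it was found in 2 of the 32851 windows of 300 bases, those of these 2 genes. It was the longest run shared by windows of any pair of members, and the next was 13 bases (Cdh6 and Cdh8). The run holds 1 match to the E-box letters CANNTG. Over full windows of 300 bases, every member window and 72.3% of all windows hold such a match on either strand. In the windows, the letters ACAATG were found in none of the members, beside 12.6% of all windows. The letters ACAAAG, searched on both strands, occurred once in the Cdh6 window, inside the stretch shown, and in 1 Cdh7 window. They were in no window of Cdh8, Cdh9 or Cdh10, beside 18.7% of all windows. Windows were matched for 5 of the 10 members (Cdh6, Cdh7, Cdh8, Cdh9 and Cdh10). A match is a run of letters and not a measured binding site.

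Cdh4 was down-regulated in SGNs between E15.5 and P30. Its level was 42.1, 31.2 and 41.2 RPKM in the E15.5 libraries, 18.4, 14.8 and 17.4 at P1, 14.6, 11.1 and 12.9 at P8, 7.82, 8.04 and 7.23 at P14, and 5.60, 4.63 and 4.93 at P30. In RPKM the libraries of each age lay below all libraries of the age before it. In TPM (counts per length, scaled to one fixed sum in every library) successive ages overlapped, as with 28.4 in E15.5 replicate 2 and 43.7 in P1 replicate 3. The P30 libraries stayed below those of E15.5 in TPM (at most 7.59 against at least 28.4). Cdh4 fell by 1.16 ± 0.16 (SE) on the log2 scale from E15.5 to P1 (limma-voom, adjusted p = 0.00042) and by 2.92 ± 0.21 from E15.5 to P30 (limma-voom, adjusted p = 3.15e-08), a 7.57-fold decrease. The single steps after P1 did not pass the test, with log2 differences of -0.40 ± 0.17 (P1 to P8), -0.72 ± 0.20 (P8 to P14) and -0.64 ± 0.24 (P14 to P30).

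Cdh2, the other type I cadherin of neurons, had no age difference that passed the test. It lay at 32.8, 17.8 and 35.4 RPKM at E15.5, 19.6, 21.9 and 19.0 at P1, 15.4, 20.4 and 18.6 at P8, 19.5, 25.9 and 24.2 at P14, and 22.9, 23.8 and 25.5 at P30. The ranges of successive ages overlapped at each step, and the difference from E15.5 to P30 was -0.22 ± 0.22 on the log2 scale (limma-voom, adjusted p = 0.43). The Cdh4 to Cdh2 ratio, which no scaling of the library can change, was 1.16 to 1.75 at E15.5, 0.674 to 0.937 at P1, 0.547 to 0.946 at P8, 0.299 to 0.401 at P14 and 0.193 to 0.245 at P30. Cdh4 was thus the higher of the pair in all E15.5 libraries and Cdh2 in all libraries of the later ages. Between E15.5 and P30 the mean log2 ratio differed by 2.72, with p = 0.10 in a two-sided exact permutation test, the smallest p that 3 libraries against 3 allow.

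**Figure D1:**
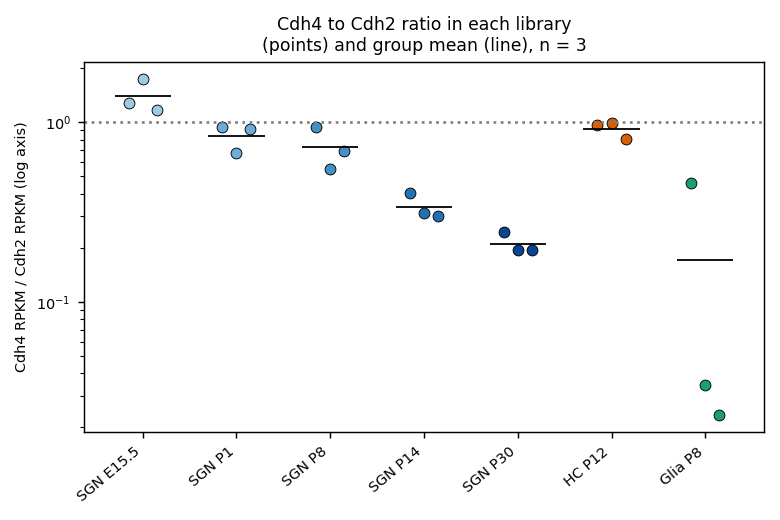
Ratio of Cdh4 to Cdh2 normalized RPKM in each library on a log axis, by group; lines are group means and the dotted line marks equal levels. All 3 E15.5 libraries lie between 1.16 and 1.75 and all 3 P30 libraries between 0.193 and 0.245, while HCs lie between 0.803 and 0.99 and glial replicate 1 stands apart from the other glia at 0.456.

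Cdh9, a type II cadherin, was up-regulated around birth. Its level was 1.62, 0.842 and 0.33 RPKM at E15.5 and 12.04, 15.46 and 16.1 at P1, with no overlap. It rose by 4.26 ± 0.68 on the log2 scale (limma-voom, adjusted p = 0.0013), a 19.2-fold increase. The level was then 11.1, 18.8 and 20.9 at P8, 9.39, 15.8 and 7.85 at P14, and 9.16, 7.76 and 7.88 at P30. No later step passed the test, and P30 remained 11.0-fold above E15.5 (log2 difference 3.46 ± 0.70, limma-voom, adjusted p = 0.00095).

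From E15.5 to P1, Cdh4 and Cdh9 were the 2 of 10 members that passed the test (adjusted p under 0.05 and over 2-fold), beside 8.26% of the 15113 genes tested (5.08% called higher and 3.18% lower). Both passed in each of the 15 alternatives tried. None of the 10 members passed with limma-voom, edgeR or DESeq2 from P1 to P8 (7.44% of genes did with limma-voom, 4.29% higher and 3.15% lower), from P8 to P14 (0.536%, 0.251% higher and 0.285% lower) or from P14 to P30 (0.0596%, 0.0331% higher and 0.0265% lower). An unadjusted p under 0.05 (limma-voom) was reached by 4, 3 and 2 members in these steps, beside 25.2%, 11.5% and 6.55% of genes, and Cdh4 was among them each time. From P1 to P8 Cdh1 lay at 3.34, 0.277 and 0.445 RPKM and then 18.1, 2.90 and 4.88. It passed with replicate 1 of P1, P8, P14 and P30 and glial replicate 1 left out together (log2 difference 3.38, limma-voom, adjusted p = 0.038). The P8 libraries kept had glial marker sums of 636 and 809 RPKM, against 129 and 51.4 in those of P1, and glia had the highest Cdh1. The part of glial material in this difference was not tested. For Cdh6, which lay at 1.19, 2.44 and 0.58 RPKM at P1 and 3.40, 3.66 and 2.97 at P8, the difference was 1.47 ± 0.52 on the log2 scale (limma-voom, adjusted p = 0.080). Of the later steps of Cdh4, that from P8 to P14 had an adjusted p of 0.11 (limma-voom).

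From E15.5 to P30, 5 of 10 members passed, beside 34.6% of genes (18.4% higher and 16.2% lower). Cdh9 and Cdh8 rose and Cdh4, Cdh10 and Cdh13 fell, and the median log2 difference over the members was 0.02, against -0.01 over all genes tested. The comparisons between ages share libraries, E15.5 in the first and P30 in the last, and are not independent of each other.

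Among the low members, Cdh8, known from subsets of central neurons, lay at 0.0775, 0.919 and 0.556 RPKM at E15.5 and 1.43, 2.74 and 3.12 at P30 (5.50-fold, log2 difference 2.46 ± 0.88, limma-voom, adjusted p = 0.034). Every P30 library was above every E15.5 library. The call was lost with 8 of 15 alternatives, where the adjusted p reached 0.11, among them without E15.5 replicate 1 (log2 difference 1.55), E15.5 replicate 3 (2.74), P30 replicate 2 (2.31) or P30 replicate 3 (2.24). Cdh10 lay at 1.63, 1.503 and 2.25 RPKM at E15.5 and 0.853, 0.251 and 0.493 at P30, without overlap, and fell by 1.83 ± 0.50 on the log2 scale (limma-voom, adjusted p = 0.0083). Cdh13 lay at 1.69, 1.91 and 1.09 RPKM at E15.5 and 0.882, 0.0391 and 0.0863 at P30, the highest of these in the library with the most connective tissue markers of its age. It fell by 3.12 ± 0.87 on the log2 scale (limma-voom, adjusted p = 0.0094). Without P30 replicate 2 (log2 difference -2.22) or P30 replicate 3 (-2.67) the adjusted p of Cdh13 (limma-voom) rose to 0.054 and 0.050 and the call was lost, as it was with edgeR (-2.24, adjusted p = 0.067).

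Cdh7, another type II cadherin, was low and uneven in SGNs, from 0.0768 to 2.91 RPKM with a median of 0.588. Its highest libraries were P30 replicate 3 (2.91) and E15.5 replicate 3 (2.85), while the others of the same ages lay between 0.445 and 1.08. No age difference of Cdh7 passed the test.

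Cdh1 and Cdh11 were found in all SGN libraries, but their highest SGN values lay in few of them. Cdh1 reached 18.1, 15.6 and 12.5 RPKM in replicate 1 at P8, P14 and P30, against 0.836 to 4.88 in the other libraries of these ages. In the same 3 libraries 8 markers of supporting and other epithelial cells (Epcam, Krt8, Krt18, Otog, Otogl, Tecta, Gjb2 and Gjb6) summed to 60.8, 61.6 and 17.4 RPKM, against 1.06 to 19.3 in the others. The same libraries had the highest glial marker sums of their ages (1080, 436 and 193 RPKM), and glia had the highest Cdh1. P1 replicate 1 and P14 replicate 3, with epithelial sums of 20.3 and 19.3 RPKM, had Cdh1 at 3.34 and 1.94. The part of either kind of cell in the Cdh1 values was not tested. Cdh11, known from mesenchyme, was highest at 15.9 RPKM in E15.5 replicate 2, with 1.41 and 0.575 in the other E15.5 libraries. That library had the highest connective tissue marker sum of its age (38.2 against 22.5 and 12.6). P1 replicate 1 and P8 replicate 1 had higher sums, 100.1 and 124, with Cdh11 at 4.36 and 4.82 RPKM, and the part of such cells was not tested. Cdh11 lay between 0.181 and 4.88 RPKM in the later SGN libraries.

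**Figure D2:**
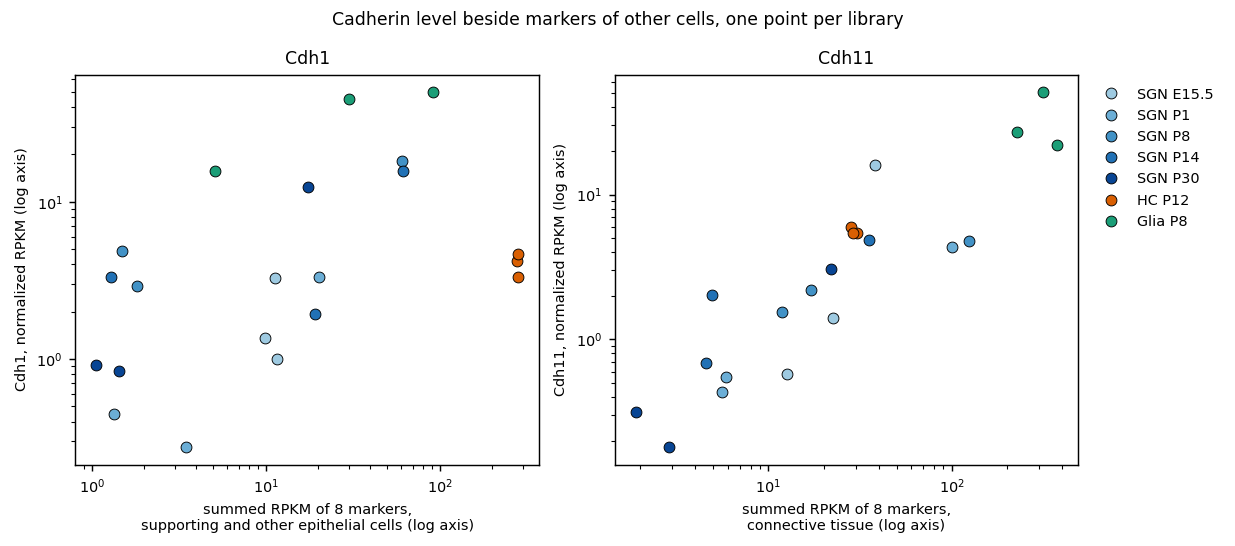
Left, Cdh1 against the summed RPKM of 8 markers of supporting and other epithelial cells, and right, Cdh11 against the summed RPKM of 8 connective tissue markers, both on log axes with one point per library. Among SGNs the 3 libraries with Cdh1 above 12 RPKM have marker sums of 17.4 to 61.6, P1 replicate 1 and P14 replicate 3 have sums of 20.3 and 19.3 with Cdh1 of 3.34 and 1.94, and HCs combine sums of 279 to 282 with Cdh1 of 3.32 to 4.68.

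In SGNs the summed level of the 10 genes was 74.9 to 85.7 RPKM at E15.5 and 42.1 to 59.6 at P30, without overlap. In TPM the sums of these ages overlapped. The composition of the sum, which is the same in either unit, shifted. Cdh4 made up 41.6% to 49.6% of the sum at E15.5 and 9.40% to 11.0% at P30. Cdh2 made up 23.8% to 41.3% at E15.5 and 38.4% to 56.6% at P30, and Cdh9 0.386% to 1.90% at E15.5 and 15.4% to 18.4% at P30. Cdh2 and Cdh4 together held 42.0% to 89.5% in the 15 SGN libraries and 61.9% to 64.8% in HCs, but 6.66% to 12.8% in glia. There, Cdh1, Cdh6 and Cdh11 held 81.0% to 92.0%, against 34.2% to 36.5% in HCs, nearly all from Cdh1 and Cdh11.

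**Figure D3:**
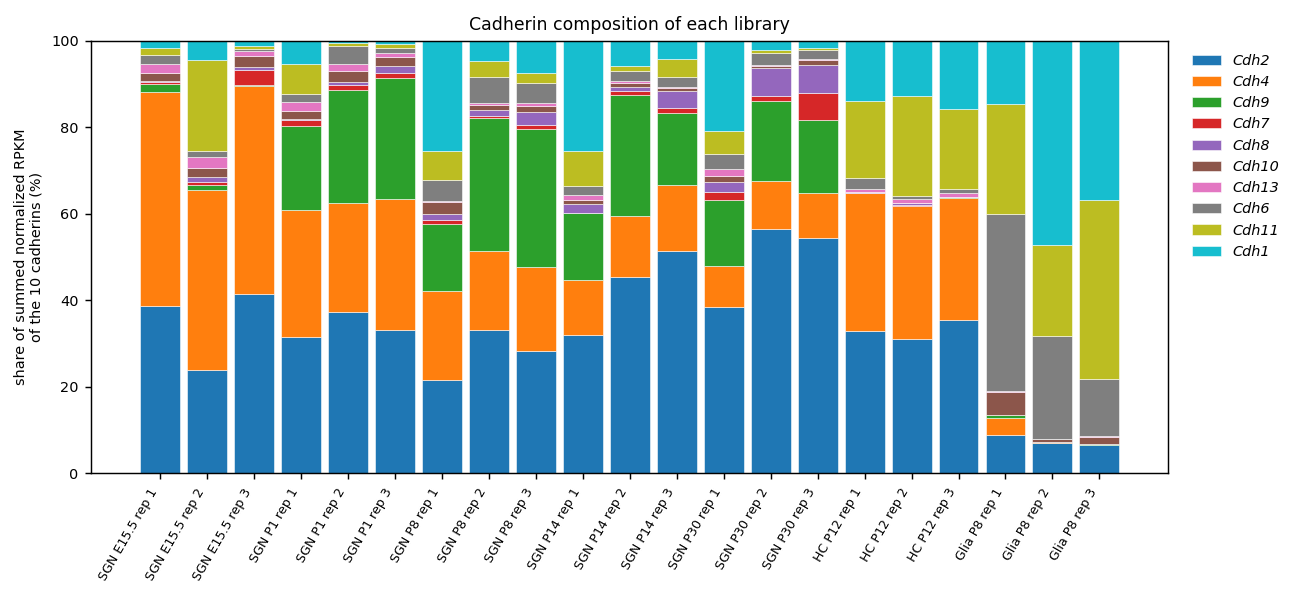
Share of each gene in the summed normalized RPKM of the 10 cadherins, in percent, with one bar per library. The lower segments are Cdh2 and Cdh4, which hold 42.0% to 89.5% of SGN bars and 6.66% to 12.8% of glial bars, and the upper segments are Cdh6, Cdh11 and Cdh1.

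The comparison with HCs asked which members separate neurons from receptor cells. Cdh9 and Cdh10 were at the limit of detection in HCs, with counts of 0, 0 and 2 for Cdh9 and 2, 0 and 0 for Cdh10, where 3 counts amount to 0.167 to 0.246 CPM (counts scaled to 1000000 per library). Summed over the libraries of all ages, SGNs had 1159 times the normalized count of HCs for Cdh9 (95% counting interval 321 to 9571). For Cdh10 it was 358 times (99.1 to 2959). The E15.5 libraries held 156 of the 12532 SGN counts of Cdh9, so the Cdh9 ratio describes the later ages. Against HCs, Cdh7 was 35.4 times higher (21.8 to 62.1, HC counts 0, 14 and 2) and Cdh8 21.7 times higher (14.8 to 33.3, HC counts 12, 14 and 0). These intervals are exact conditional binomial ones and cover counting error only, not the spread between libraries. They are also too narrow, since 64.3% to 74.97% of counts from 1 to 20 were even numbers, so that single counts are not independent molecules.

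All 4 of these genes passed against HCs for the mean of the SGN ages (adjusted p under 0.01 and over 4-fold, limma-voom, adjusted p = 2.87e-07 for Cdh9, 2.10e-06 for Cdh10, 0.00024 for Cdh7 and 0.0014 for Cdh8). They were the 4 of 10 members called, all higher in SGNs, beside 10.5% of 17531 genes called higher and 26.8% in either direction. At P14, the SGN age nearest to the HCs, the same 4 passed (limma-voom, adjusted p = 4.29e-07 for Cdh9, 9.87e-05 for Cdh10, 0.0018 for Cdh8 and 0.0096 for Cdh7), beside 10.9% of genes called higher and 23.1% in either direction. Both comparisons share the HC and P14 libraries. The P14 call of Cdh7 was lost without P14 replicate 2 (log2 difference 3.95), P14 replicate 3 (3.96), HC replicate 1 (3.51) or HC replicate 3 (4.34), and also with edgeR (adjusted p = 0.010), DESeq2 size factors (0.013), no filter (0.015) or library size only (0.020). That of Cdh8 was lost without HC replicate 3, at P14 (log2 difference 3.64) as for the mean of the ages (3.18).

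Cdh2 was higher in SGNs of every age than in HCs, where it lay at 10.1, 8.04 and 10.5 RPKM, with a mean difference of 1.23 ± 0.21 on the log2 scale (limma-voom, adjusted p = 4.31e-05) that stayed under the 4-fold threshold, although in TPM (counts per length, scaled to one fixed sum in every library) the mean at P8 and P30 was below that of HCs (log2 ratio -0.29 and -0.22). Cdh4 in HCs (9.69, 7.96 and 8.40 RPKM) lay below all SGN libraries up to P8, overlapped P14 and was above P30, but in TPM the P8 mean was also below that of HCs (log2 ratio -0.72). Its difference from the SGN mean was 0.55 ± 0.24 on the log2 scale (limma-voom, adjusted p = 0.060) and was -0.0015 when only library size was scaled. For Cdh11, the HC level of 5.45, 5.93 and 5.46 RPKM was above 14 of 15 SGN libraries, with a log2 difference of -1.83 ± 0.63 (limma-voom, adjusted p = 0.020). That difference would pass without E15.5 replicate 2, the SGN library with the highest Cdh11 (log2 difference -2.13), P1 replicate 1 (-2.08) or P30 replicate 1 (-2.18). Cdh1 (4.22, 3.32 and 4.68 RPKM) and Cdh13 (0.221, 0.274 and 0.314) in HCs lay inside the SGN range. HC libraries carried the highest sum of supporting and other epithelial markers (279 to 282 RPKM, Otog alone at least 150.2), and its part in the Cdh1 and Cdh11 values was not tested.

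**Figure D4:**
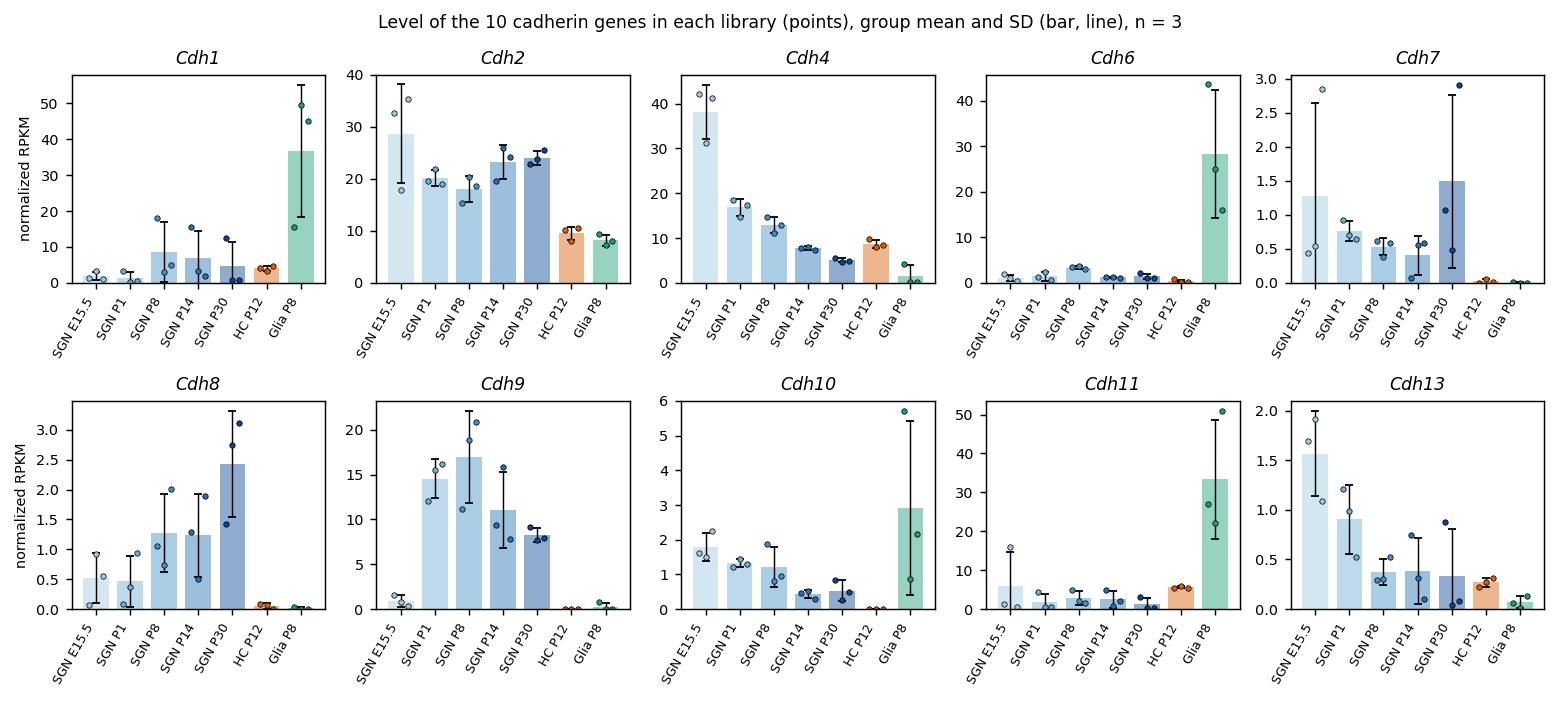
Normalized RPKM of the 10 cadherins (vertical axes start at 0 and differ between panels) in 5 SGN ages, HCs and glia; points are libraries, bars group means and lines SD (n = 3). Cdh4 descends from 42.1 to 4.63 over the SGN ages, Cdh9 is seen from P1 on, and Cdh1, Cdh6 and Cdh11 stand highest in glia.

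The glial libraries had their own set of cadherins. Cdh6, which marks neural crest derivatives and early Schwann cells, lay at 43.6, 25.0 and 16.1 RPKM in glia, against 0.367 to 3.66 in all SGN and 0.195 to 0.763 in all HC libraries. Cdh11 lay at 27.1, 22.0 and 50.9 RPKM and Cdh1, also known from Schwann cells, at 15.6, 49.6 and 45.1. Of these 3 genes Cdh1 overlapped with SGNs, at P8 replicate 1 (18.1). Conversely, Cdh4 was at 4.26, 0.251 and 0.186 RPKM in glia, and Cdh7 (counts 2, 0 and 0), Cdh8 (5, 0 and 0) and Cdh9 (47, 0 and 2) had nearly all their few counts in glial replicate 1, the library with the highest SGN markers. The part of SGN material in that library was not tested. Glial libraries also had the highest connective tissue marker sums (226 to 376 RPKM, against 1.89 to 124 in SGNs and 28.1 to 30.5 in HCs). Glial replicate 2, with the highest Cdh1 of the glia, had an epithelial marker sum of 91.6 RPKM, against 5.11 and 30.2 in the others. The part of such cells in the glial values of Cdh11, Cdh1 and Cdh6 was not tested.

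At P8, where neurons and glia can be compared at 1 age, 6 of 10 members passed, beside 20.9% of genes. The 4 higher in SGNs stand beside 13.4% of genes called higher. They were Cdh4 (17.5-fold, log2 difference 4.13 ± 0.67, limma-voom, adjusted p = 5.31e-05), Cdh9 (44.9 times by summed counts, interval 33.9 to 60.8, limma-voom, adjusted p = 6.85e-06), Cdh8 (77.8 times, 33.2 to 240.4, adjusted p = 0.00039) and Cdh7 (109.5 times, 30.1 to 907, adjusted p = 0.00053). The 2 lower in SGNs stand beside 7.53% of genes called lower. They were Cdh6 (8.41-fold, log2 difference -3.07 ± 0.44, limma-voom, adjusted p = 1.54e-05) and Cdh11 (11.6-fold, -3.53 ± 0.69, adjusted p = 0.00036). Sample quality weights ended the calls of Cdh8 and Cdh7 (limma-voom, adjusted p = 0.070 and 0.10), and edgeR that of Cdh11 (adjusted p = 0.026). Glial marker sums of the P8 SGN libraries were 1080, 636 and 809 RPKM, above those of all other SGN libraries. Their part in the SGN levels of Cdh6 and Cdh1 was not tested. Cdh1 missed the threshold (log2 difference -2.19 ± 0.66, limma-voom, adjusted p = 0.011). It passed without P8 replicate 1 (-3.01), without glial replicate 1 (-2.84) and with both and replicate 1 of P1, P14 and P30 left out together (-3.67, limma-voom, adjusted p = 3.26e-06).

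For the mean of the SGN ages against glia, 7 of 10 members passed, beside 24.7% of genes. The same 4 were higher (14.3% of genes) and Cdh6, Cdh11 and Cdh1 were lower (10.4%), by 4.29 ± 0.34, 4.26 ± 0.51 and 3.51 ± 0.56 on the log2 scale (limma-voom, adjusted p = 1.57e-09, 7.05e-07 and 2.74e-05). The median log2 difference was 2.24 over the members and 0.22 over all genes tested. Cdh13 missed the threshold narrowly (log2 difference 3.07 ± 0.94, limma-voom, adjusted p = 0.010). It passed when E15.5, P1 or P14 replicate 3 or P30 replicate 1 or 2 was left out (log2 differences 3.12, 3.13, 3.21, 2.78 and 3.26) and with DESeq2 (2.93, adjusted p = 0.00021). Cdh10 (5.72, 0.873 and 2.17 RPKM in glia, 0.251 to 2.25 in SGNs) passed only without glial replicate 2 (-2.12).

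HCs and glia differed in 5 of 10 members, beside 24.4% of genes. Cdh4 was higher in HCs (11.8-fold, log2 difference 3.56 ± 0.68, limma-voom, adjusted p = 0.00027; 16.2% of genes called higher). That call was lost when these groups were fitted alone (3.66, limma-voom, adjusted p = 0.015). Cdh10, Cdh6, Cdh1 and Cdh11 were lower (8.18% of genes called lower), and of these Cdh10, with 1443 counts in glia against 2, had 1139 times the normalized count in glia (interval 315 to 9416, limma-voom, adjusted p = 1.26e-06). Cdh6 was 84.7-fold lower in HCs (-6.40 ± 0.78, limma-voom, adjusted p = 1.90e-06). The calls of Cdh1 (-2.88 ± 0.80, limma-voom, adjusted p = 0.0061) and Cdh11 (-2.44 ± 0.61, adjusted p = 0.0028) held in 4 and 8 of 15 alternatives. With all libraries kept, both were lost with edgeR (adjusted p = 0.029 and 0.080) and with library size only (limma-voom, 0.020 and 0.014). The call of Cdh11 was also lost with DESeq2 (adjusted p = 0.069). That of Cdh1 held in 1 of 6 fits without 1 library, the one without glial replicate 1, and was lost with log2 differences of -3.03 to -2.56 otherwise. That of Cdh11 held in 2 of 6 and was lost without any of the HC libraries or glial replicate 3 (log2 differences -2.50 to -2.12).

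**Figure D5:**
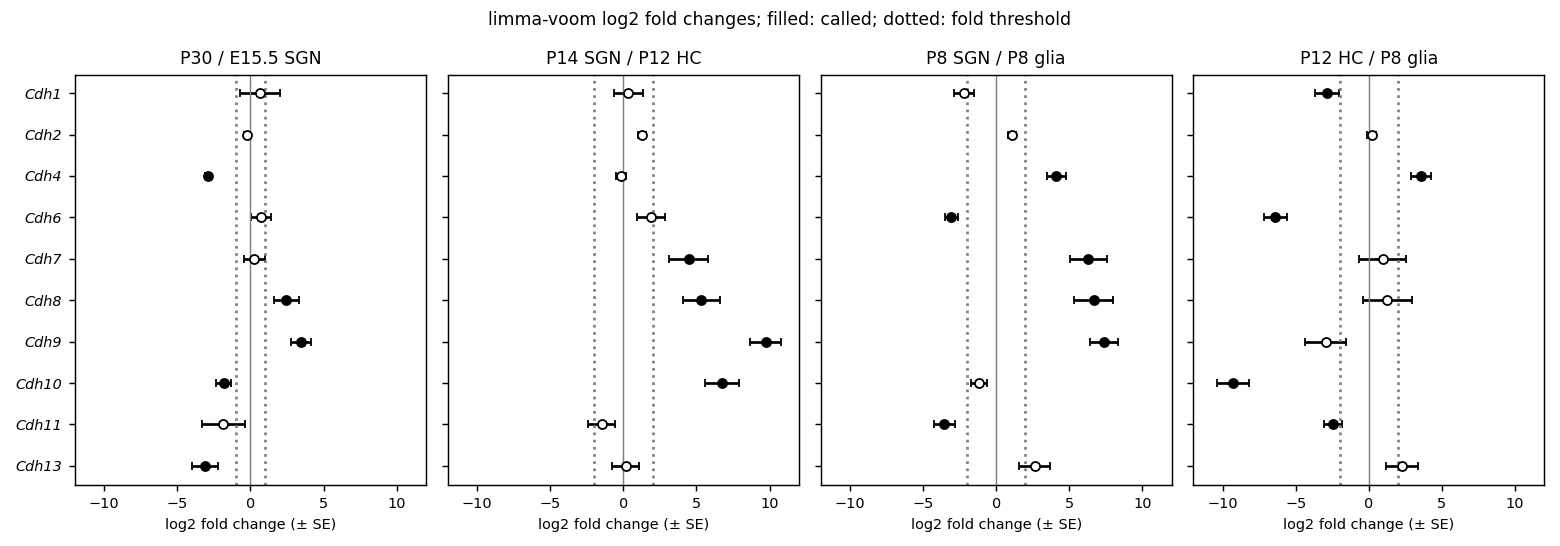
limma-voom log2 fold changes with SE of the 10 cadherins in 4 comparisons; filled points passed the test and dotted lines mark the fold threshold (2-fold for ages, 4-fold for cell types). Cdh9 and Cdh10 against HCs, Cdh10 between HCs and glia, and Cdh7 and Cdh8 against glia rest on 0 to 5 counts per library on one side, so that the plotted size depends on the count that voom adds.

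The positions of the members (GRCm38, GENCODE M21) put several members on the same chromosome, with long gaps between them. Among genes with a Cdh symbol, Cdh6 (chr15:13028701-13173675, minus strand), Cdh9 (chr15:16728756-16857094, plus) and Cdh10 (chr15:18818947-19014236, plus) lie in that order before Cdh12 and Cdh18. Cdh6 was highest in glia, Cdh9 in SGNs from P1 on, and Cdh10 was found in glia and, at 0.251 to 2.25 RPKM, in SGNs. Cdh6, Cdh9, Cdh10 and Cdh12 were low in HCs (at most 0.763, 0.0249, 0.0118 RPKM and no count), whereas Cdh18, the last of the row, lay at 5.97 to 7.77 RPKM there. Cdh7 (chr1:109982431-110140157, plus), with nearly no counts in glia, lies, among genes with a Cdh symbol, between Cdh20 and Cdh19, both of which had their highest level in glia (means of 4.38 and 17.0 RPKM). Cdh1 (chr8:106603351-106670246, plus), Cdh8 (chr8:99024471-99416471, minus), Cdh11 (chr8:102632095-102785642, minus) and Cdh13 (chr8:118283733-119324921, plus) share chromosome 8, Cdh4 is at chr2:179442431-179899373 (plus), and Cdh2 is on chromosome 18. Shared exon bases were found for Cdh8 (23 bases with the antisense gene Gm15679) and Cdh9 (224 bases with the antisense gene Gm49127), where reads of either strand cannot be told apart if strand was not used in counting.

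The partners of the cadherins were described by a list of 18 genes of the adhesion complex (catenins, vinculin, afadin, nectins and the proteases that cut cadherins). From E15.5 to P30, 6 of 18 fell and 0 rose, beside 16.2% of genes called lower and 18.4% higher, with a median log2 difference of -0.86, against -0.01 over all genes. They were Lima1 (-2.75 ± 0.98, limma-voom, adjusted p = 0.033), Nectin3 (-2.74 ± 0.31), Nectin1 (-2.30 ± 0.35), Ctnna2, the neuronal alpha-catenin (-1.89 ± 0.26), Adam10, a protease that sheds cadherin ectodomains (-1.54 ± 0.29), and Arvcf (-1.34 ± 0.34). Nectin3 was the list's only gene to pass from E15.5 to P1 (-1.01 ± 0.22) and from P1 to P8 (-1.07 ± 0.26), and none passed from P8 to P14 or from P14 to P30 (limma-voom, 2 and 0 genes at an unadjusted p under 0.05). Ctnnb1, which encodes beta-catenin, lay at 13.97 to 38.2 RPKM in SGNs, 20.1 to 26.2 in HCs and 42.1 to 57.8 in glia and was called in none of the 10 comparisons.

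The alpha-catenins differed by cell type in both directions. At P8, Ctnna2 was higher in SGNs than in glia (9.96, 19.6 and 11.47 against 0.949, 0.25 and 0.111 RPKM, log2 difference 5.27 ± 0.78, limma-voom, adjusted p = 1.95e-05) and Ctnna1 lower (25.0, 9.99 and 10.1 against 96.9, 121 and 149, -3.07 ± 0.35, adjusted p = 1.19e-06). In all, 9 of 18 list genes passed at P8, beside 20.9% of genes, 2 higher (Ctnna2 and Ctnnd2) and 7 lower, of which Vcl (-3.44 ± 0.33), Lima1 (-3.02 ± 0.50) and Ctnnd1 (-2.35 ± 0.46) are named with Ctnna1 by size. Against HCs at P14, 2 passed (23.1% of genes did), Ctnna3 higher in SGNs (counts of 71, 89 and 42 against 1, 0 and 10, limma-voom, adjusted p = 0.00092) and Vcl lower (-2.35 ± 0.43). For the mean of the ages against HCs 3 passed, beside 26.8% of genes (the same and Ctnna2, 2.33 ± 0.34, higher), and against glia 8 passed, beside 24.7%, with 2 higher and 6 lower. Between HCs and glia 6 passed, beside 24.4% of genes, with Ctnnd2, Ctnna2, Afdn and Pkp4 higher in HCs and Ctnna3 and Ctnna1 lower.

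Of 13 other genes with a Cdh symbol, 9 were tested in the SGN fit and 10 in the fit of all libraries. From E15.5 to P30, Cdh22 (counts of 4, 10 and 0 at E15.5 and 124, 50 and 60 at P30), Cdh23 (2.85 ± 0.75), a component of the tip links of HCs, and Cdh18 (1.44 ± 0.33) rose on the log2 scale and Cdh19 (counts of 16, 110 and 64, then 11, 0 and 0) and Cdh24 (-3.89 ± 0.86) fell (limma-voom, adjusted p of 0.016, 0.0065, 0.0023, 0.0048 and 0.0019). These were 5 of the 9 tested, beside 34.6% of genes. Cdh22, Cdh23 and Cdh19 passed in the same directions from E15.5 to P1, 3 of 9 beside 8.26% of genes. The HC marker sum of SGN libraries was 19.4 to 97.8 RPKM at E15.5, 212 to 343 at P1 and 75.4 to 310 at P30, and its part in the Cdh23 values was not tested. Their glial marker sum was 52.8 to 193 RPKM at E15.5 and 8.40 to 193 at P30. The part of glial material in the Cdh19 values was not tested. Cdh20, with its highest mean in glia, rose from P1 to P8 (5.32 ± 1.18, limma-voom, adjusted p = 0.0077), 1 of 9 beside 7.44% of genes. The glial marker sum of SGN libraries was 50.7 to 129 RPKM at P1 and 636 to 1080 at P8, and its part in the Cdh20 values was not tested. Cdh23 was at 17.4, 22.4 and 19.3 RPKM in HCs, above 0.0236 to 3.43 in SGNs, and Cdh19 at 10.1, 25.0 and 15.7 RPKM in glia, above 0 to 1.24 in SGNs. Against HCs at P14, Cdh23 (-2.97 ± 0.30) and Cdh26 (counts of 22, 0 and 0 against 16, 74 and 45) were lower in SGNs, and against glia at P8, Cdh22 (counts of 30, 47 and 24 against 2, 0 and 0) and Cdh18 (3.27 ± 0.62) were higher and Cdh19 (-5.34 ± 0.89) lower. These were 2 of 10 and 3 of 10, beside 23.1% and 20.9% of genes. For the mean of the ages 3 of 10 passed against HCs, beside 26.8% of genes, with Cdh12 added as higher in SGNs. Cdh12 was uneven, with 0 to 373 counts in the P30 libraries. Against glia 4 of 10 passed, beside 24.7% of genes, with Cdh20 added as lower. Between HCs and glia 5 of 10 passed, beside 24.4% of genes, with Cdh26, Cdh22, Cdh23 and Cdh18 higher in HCs and Cdh19 lower. Cdh5 of endothelium was at 22.0 RPKM in P1 replicate 1, and at most 4.31 elsewhere, and was not tested.

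For each member the 3 genes with the most similar pattern were found among 12286 genes by Pearson r of log2(TPM + 1) over the 21 libraries. The libraries fall into cell types, which they share, so r is a description without a test. Ranked by normalized RPKM in place of TPM, 14 of the 30 genes stayed in the first 3 and 29 in the first 20, and Kcna6 was the lowest at rank 21. For Cdh9 they included Grm7 (r = 0.977), a metabotropic glutamate receptor, and Plekha2 (0.965). For Cdh2 they were Rbfox2 (0.964), Rasgef1b (0.960) and Vps13c (0.957), and for Cdh4 Tub (0.960), Nsg2 (0.956) and Ablim3 (0.952). The glial members went with genes highest in glia, namely Cdh6 with Col28a1 (0.943), Dmd (0.930) and Cldn19 (0.929), Cdh11 with Serinc5 (0.936), Sdc2 (0.935) and Fkbp9 (0.933), and Cdh1 with Selenop (0.934), Myl9 (0.903) and Apoe (0.901). The low members had Fam43b (0.932), Ndst4 (0.931) and Syt1 (0.908) for Cdh8, Fzd1 (0.877), Arnt2 (0.871) and Kcna6 (0.869) for Cdh10, Prr12 (0.877), Rab3b (0.870) and Gata3 (0.869) for Cdh13, and Sptbn4 (0.815), Vgf (0.808) and Unc5c (0.804) for Cdh7.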

How the data were processed

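RNA was amplified and sequenced by the authors, who per the labels aligned reads with STAR 2.4.0i to mm10 and counted them per gene with featureCounts. The deposited table held whole-number counts of 52550 genes in 21 libraries, not normalized by the authors, with 3 libraries in each of 7 groups taken from the sample titles. Symbols were matched for 52403 identifiers, and library totals were 10368240 to 37287489 counts. Whether strand was used in counting is not given in the sources used here.

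Counts were TMM-normalized (edgeR 4.0.16) and tested with voom and limma 3.58.1 (R 4.3.3), two-sided, with Benjamini-Hochberg adjustment over all genes with more than 1 CPM in all libraries of at least 1 group. SGN ages were fitted on the 15 SGN libraries (15113 genes, called at adjusted p under 0.05 and over 2-fold) and cell types on all 21 (17531 genes, adjusted p under 0.01 and over 4-fold). Alternatives were edgeR's quasi-likelihood test, DESeq2 1.42.0, other scalings and filters, quality weights, a replicate block and leaving out libraries. The fit was tested on simulated data with known changes. Levels were to be given as TPM, but 1 gene of 57 bases, Gm23935, took 8.17% to 68.1% of the TPM sum of a library (0.186% to 4.70% of its counts), so normalized RPKM replaced it. The shares of the members and the Cdh4 to Cdh2 ratio are the same in either unit.

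The members and gene lists were chosen with earlier results of these data known. The rule for named genes was all 10 members, called list genes (at most 6 per list and comparison, by size of fold change) and the 3 most similar genes of each member. One of these similar genes is not reported here. Marker lists were summed for SGNs, HCs, glia, connective tissue, epithelial cells, endothelium and pericytes (0.267 to 36.2 RPKM), macrophages (at most 1.54) and blood (at most 116, in E15.5 replicate 1). Promoter windows were those of RefSeq, GRCm38.p6.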

Additional observations from a re-analysis of the deposited data

How the results depend on the processing

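The number of members called stayed within 1.5 times its value in 161 of 174 alternatives, and no called member changed direction in any of them. From E15.5 to P30, edgeR's quasi-likelihood test called 3 members in place of 5, and leaving out 1 library gave 3 to 5. Against glia, sample quality weights called 4 members in place of 7 for the mean of the SGN ages. Between HCs and glia, scaling by library size only and fitting these groups alone called 3 in place of 5, and leaving out 1 library gave 3 to 5. For P14 against HCs, leaving out 1 library gave 2 to 4. From P1 to P8, 1 member (Cdh1) in place of 0 was called with the replicate block, and 1 with 5 libraries left out together, replicate 1 of P1, P8, P14 and P30 and glial replicate 1, an alternative chosen after seeing the data. The cause of these changes was not tested.

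The replicate numbers were not taken to pair the samples. All 3 same-numbered libraries deviated together (correlation over 0.1) for P8 and P30 (0.38, 0.17 and 0.15), which were not compared. In none of the pairs of groups compared did all 3 do so. Replicate 1 had the highest correlation in the compared steps after P1 (0.36 for P1 and P8, 0.31 for P8 and P14, 0.37 for P14 and P30). Replicate 1 of these ages also had the highest connective tissue marker sums, and a shared source was not tested. The block added the calls of Cdh1 from P1 to P8 (log2 difference 2.75) and from E15.5 to P30 (1.55), Cdh6 for the SGN mean against HCs (2.03) and Cdh13 for the SGN mean against glia (3.10), and ended that of Cdh1 between HCs and glia (-2.54). Of 1729 member differences compared under alternatives, 47 changed sign, 0 of them called in the reported fit. Among the values given above these were Cdh1 from E15.5 to P30 (log2 difference -0.0387 with quality weights, -0.98 to 1.35 without 1 library with the lowest without P30 replicate 1, -0.97 with 5 libraries left out), Cdh2 from P14 to P30 (-0.063 to 0.15 without 1 library with the lowest without P14 replicate 1, -0.024 with 5 libraries left out) and Cdh4 for the SGN mean against HCs (-0.0015 with library size only). With TPM the mean level relative to HCs turned to log2 -0.29 for Cdh2 at P8, -0.22 for Cdh2 at P30 and -0.72 for Cdh4 at P8. Of 70 group means of members, 39 moved by at least their SD in TPM. In TPM without mitochondrially encoded genes 49 did so. Library size alone moved the median log2 difference of all genes from 0.02 to -0.54 for the SGN mean against HCs and from -0.01 to -0.49 from E15.5 to P30. DESeq2 gave no adjusted p for Cdh4 in the 5 comparisons of cell types. Depth limits the size of the Cdh7, Cdh8, Cdh9 and Cdh10 differences, where HCs or glia had few counts.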
